A study of Homo sapiens with 15 samples.

Results

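The 10 C/D box small nucleolar RNAs (snoRNAs) that lie in the introns of GAS5 were described across 15 small RNA libraries. They were taken by name, as SNORD44, SNORD47, SNORD74, SNORD75, SNORD76, SNORD77, SNORD78, SNORD79, SNORD80 and SNORD81, a rule that names the genes and sets no threshold. They are 10 of the 50037 genes of the count table and 10 of its 399 C/D snoRNA genes, 224 of which had a count in any library. All 10 had counts in every library and passed the filter on low counts. The libraries are labelled as wild-type HEK-293, a line derived from human embryonic kidney, whereas the series title names macrophages. The treatments lasted 18 h and were very low-density lipoprotein (VLDL; its titles add pcDNA, which is not explained), the products of VLDL lipid cleavage by lipoprotein lipase (LPL:VLDL), and the same products together with 20 µM of the NOX1/4 inhibitor GKT136901, which acts on 2 of the NADPH oxidases. Each of the 3 treatments had 5 libraries, and replicates 1 to 5 carry the batch labels of experiments 2 to 6, so that each experiment holds 1 library of each treatment. HEK-293, the line named by the labels, is a single established line, and the libraries of an experiment are not said to come from separate passages.

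C/D box snoRNAs are short RNAs held by a set of core proteins, fibrillarin among them, that place a methyl group on the ribose of a chosen nucleotide of ribosomal RNA. A guide stretch that pairs with the ribosomal RNA lies just before the D box or the internal D′ box, and the C and D boxes near the ends bind the proteins. GAS5 (growth arrest specific) codes for no conserved protein; its snoRNAs are cut from its introns after splicing, while the spliced exons are translated briefly and removed by nonsense-mediated decay. SNORD44 is catalogued as a guide of the small-subunit ribosomal RNA and the other members mainly of the large-subunit ribosomal RNA. SNORD44 and SNORD47 are also widely used as reference RNAs in miRNA assays.

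The host gene spans chr1:173863901-173869045 on the minus strand of GRCh38.p14, 5145 bases, and each member lies in an intron with 0 bases in an exon of another gene. From the 5′ end of the host the order is SNORD74, SNORD75, SNORD76, SNORD77, SNORD44, SNORD78, SNORD79, SNORD80, SNORD47 and SNORD81. Of the 10 members, 8 end between 64 and 94 bases before the next GAS5 exon, the usual distance of intronic C/D snoRNAs from the splice site. The exceptions were SNORD80 at 128 bases and SNORD74 at 630 bases. The members are 60 to 81 bases long.

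Sequences of 7 members are shown because the members differ in their C box, in how far their annotated outermost bases match and in the stretches they share. They were read in GRCh38 from GENCODE 29 transcripts of GAS5 that keep the intron, and are given as DNA, 5′ to 3′, in host order. Capitals mark an exact TGATGA, the core of the C box, that begins in the first 15 bases, and the last CTGA, the D box, in the last 15 bases.
SNORD76: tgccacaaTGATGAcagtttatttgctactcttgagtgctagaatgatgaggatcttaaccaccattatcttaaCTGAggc
SNORD77: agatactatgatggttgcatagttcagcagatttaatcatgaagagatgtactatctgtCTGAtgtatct
SNORD44: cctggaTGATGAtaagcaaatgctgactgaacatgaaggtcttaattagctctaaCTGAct
SNORD79: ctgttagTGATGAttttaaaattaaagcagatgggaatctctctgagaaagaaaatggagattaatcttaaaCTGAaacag
SNORD80: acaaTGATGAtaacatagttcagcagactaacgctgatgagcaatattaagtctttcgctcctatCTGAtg
SNORD47: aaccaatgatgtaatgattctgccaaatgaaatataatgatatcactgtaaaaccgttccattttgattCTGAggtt
SNORD81: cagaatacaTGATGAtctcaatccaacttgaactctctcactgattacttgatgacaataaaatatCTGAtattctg

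They lie, in the same order, at chr1:173866635-173866715, chr1:173866301-173866370, chr1:173865968-173866028, chr1:173865350-173865430, chr1:173864833-173864903, chr1:173864369-173864445 and chr1:173864146-173864222, all on the minus strand. SNORD74 lies at chr1:173867674-173867745, SNORD75 at chr1:173866879-173866938 and SNORD78 at chr1:173865622-173865686. TGATGA was present at that place in 5 of the 7 and CTGA in 7 of 7; among 232 GENCODE 29 snoRNA transcripts of 60 to 81 bases, on the strand of the transcript, 55.2% held the first, 83.2% the second and 49.1% both. SNORD77 has tgatgg and SNORD47 has tgatgt where the other 5 have TGATGA, each with 1 mismatch. The first 5 bases were set against the last 5, end to end, with no shift and without pairs of G with T. They were complementary at 5 of 5 positions in SNORD77, SNORD79 and SNORD81 and at 4 in SNORD47. SNORD76 and SNORD44 matched at 1 position and SNORD80 at 0. Stems that a shift of the ends would allow were not looked for. The longest run shared by any 2 of the 7 is catagttcagcaga, 14 bases that begin at base 18 of SNORD77 and at base 14 of SNORD80. No pair of the 7 was over 59.2% identical.

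**Figure D1:**
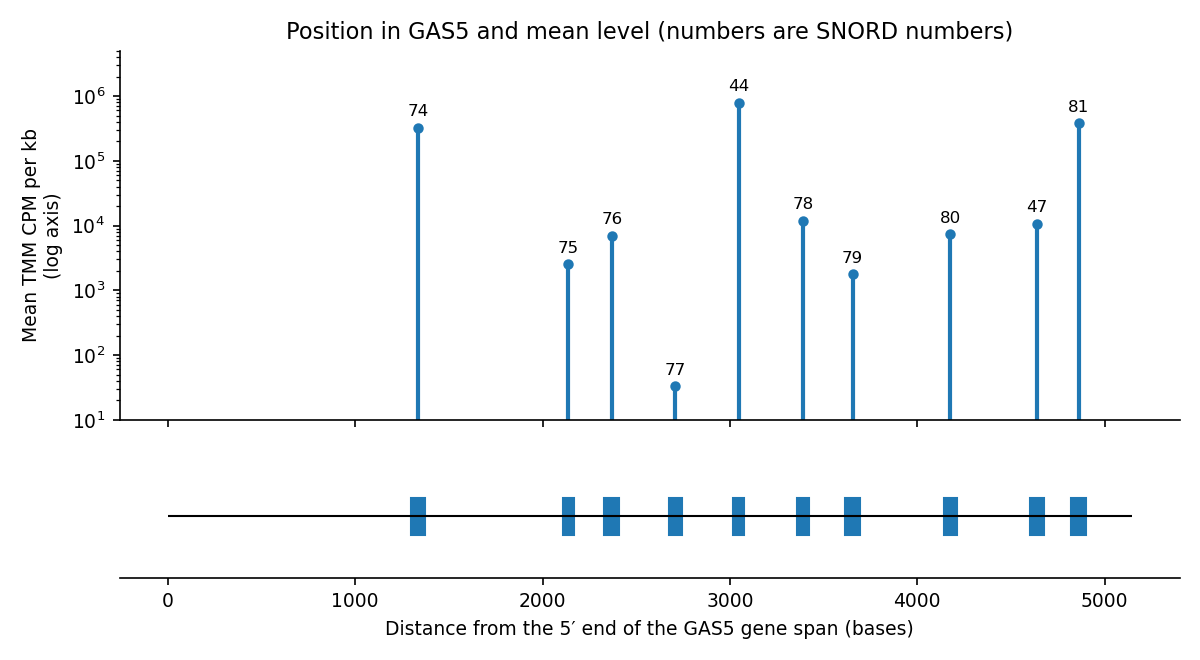
Position of the 10 snoRNAs along the GAS5 gene span (x axis, bases from the 5′ end; blue boxes) and their mean level over 15 libraries (y axis, TMM CPM per kb, log axis; 1 stem per snoRNA). SNORD44, SNORD81 and SNORD74 stand far above the rest and are not neighbours, and SNORD77 lies at the bottom beside SNORD44.

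Before the levels, 3 facts of the whole series bear on them. Library totals were 5076917 to 9757123 counts, the lowest in GKT136901 replicate 2. The TMM factors, which scale the libraries to each other, ran from 0.765 in LPL:VLDL replicate 2 to 1.34 in LPL:VLDL replicate 1, and the other libraries of experiment 2 had 1.16 and 1.32. LPL:VLDL replicate 2 stands apart in several members, and values without it stand beside those it moves most. Treatment means and unblocked treatment fits without it keep the other libraries of experiment 3, so there the treatments are no longer matched by experiment. Of 18 myeloid marker genes, 17 had a count, AIF1 was at 0, and their summed level ran from 27.5 to 127 CPM of the total counts (VLDL 37.8 to 112, LPL:VLDL 27.5 to 127, GKT136901 30.6 to 81.8). Of 18 genes expressed in HEK-293 cells, 15 had a count, LIN28B, NEFM and TUBB2B were at 0, and the sum ran from 5.74 to 24.8 CPM. The label was thus not borne out by all of its markers. The lowest myeloid sum, 27.5 CPM, lay above the highest HEK-293 sum, 24.8 CPM, but the 2 lists hold different genes, so their sums are not like levels. The filter on low counts kept 9 of the 18 myeloid and 3 of the 18 HEK-293 genes. The cells used remain uncertain. The marker counts are fragments of mRNA in a small RNA library.

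The 10 snoRNAs together held a large share of the small RNA counts, 10.3% ± 0.992 of all counts (SD, n = 15; 8.59% to 11.9%) and 18.1% ± 0.649 of the counts of all C/D snoRNAs. The share of all counts was 10.4% ± 1.08 after VLDL, 10.2% ± 0.971 after LPL:VLDL and 10.1% ± 1.14 after GKT136901 (SD over 5 libraries each), and the groups overlapped. SNORD44, SNORD81 and SNORD74 made up 46.4%, 28.1% and 22.6% of the 13593783 counts of the 10, together 97.1% (96.5% to 97.9% in single libraries). The other 7 members shared 2.88%. Among all C/D snoRNAs ranked by total count, SNORD44 was at place 3, SNORD81 at 4 and SNORD74 at 8, while SNORD77 was at place 154.

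Levels of different members are compared as TMM CPM per kb, where CPM are counts scaled to a common library total, here after TMM scaling, and then divided by gene length. The mean over 15 libraries was 788951 TMM CPM per kb for SNORD44, 378628 for SNORD81 and 322460 for SNORD74. A second tier followed with SNORD78 at 11858 TMM CPM per kb, SNORD47 at 10744, SNORD80 at 7385 and SNORD76 at 6925. SNORD75 had 2528 TMM CPM per kb and SNORD79 had 1774. SNORD77 had 33.0 TMM CPM per kb, so that SNORD44 was 23923-fold above it and 445-fold above SNORD79. How evenly the libraries capture different snoRNAs was not measured, so these are folds of counts. SNORD77 and SNORD44, the lowest and the highest, are neighbours in the host.

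Within libraries, SNORD44 exceeded SNORD81 in 15 of 15, by 2.10-fold (1.77 to 2.28). SNORD81 exceeded SNORD74 in 11 of 15, with a mean log2 ratio of 0.21 ± 0.27 (SD), so the 2 did not differ beyond their spread. SNORD74 was 27.6-fold above SNORD78 (17.8 to 37.0) in 15 of 15 libraries, the step between the first tier and the second. SNORD78 against SNORD47 (0.17 ± 0.55; higher in 10 of 15) and SNORD80 against SNORD76 (0.07 ± 0.19; higher in 11 of 15) did not differ beyond their spread. SNORD47 exceeded SNORD80 in 15 of 15 libraries by 1.44-fold, and SNORD76 exceeded SNORD75 in 15 of 15 by 2.75-fold. SNORD75 was above SNORD79 in 13 of 15 libraries (log2 ratio 0.56 ± 0.42), and SNORD79 above SNORD77 in 15 of 15, by 61.3-fold (28.3 to 159). The order of the 3 highest and the 3 lowest held without division by length, while SNORD47 then stood before SNORD78 and SNORD76 before SNORD80.

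**Figure D2:**
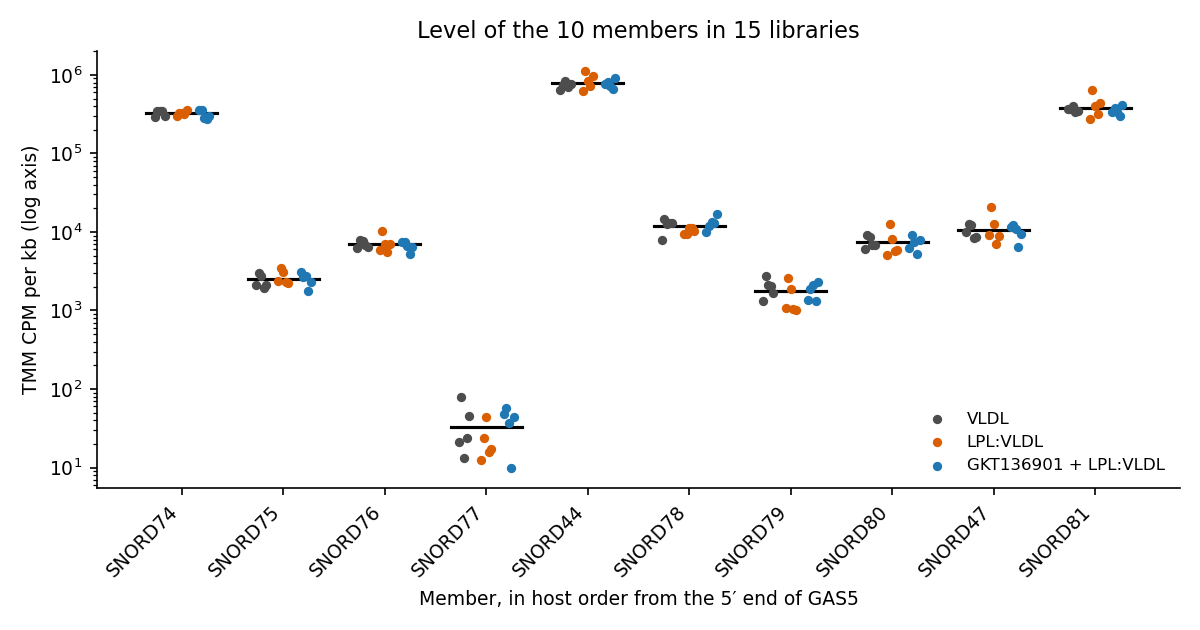
Level of each snoRNA (y axis, TMM CPM per kb, log axis) in host order (x axis), with 1 point per library coloured by treatment and a line at the mean of 15 libraries. SNORD44, SNORD81 and SNORD74 form the top tier, the treatments overlap in every member, and SNORD77 has the widest scatter.

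SNORD77 rests on 6 to 55 counts a library, 300 in all, against 6308383 for SNORD44. Its level ran from 0.685 to 5.61 TMM CPM, an 8.18-fold range, and its mean was 2.31 ± 1.41 (SD, n = 15). SNORD77B and SNORD74B, which carry the names of further copies, were listed at 0 in every library. Reads that map to more than 1 place were not counted, so reads shared by such copies would be missing; their part in the low count of SNORD77 was not tested.

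The host itself was close to empty. GAS5 had 38 counts in all 15 libraries together, 0 in 5 of them and at most 9, too few to be tested. GAS5-AS1, an RNA named as antisense to the host, had 5 counts. The counting ignored strand, so the direction of these reads is unknown. A library of small RNAs holds only fragments of longer RNAs, and the level of spliced GAS5 cannot be read from these counts.

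No member passed the test for a difference between treatments. The test was edgeR's quasi-likelihood test, with Benjamini-Hochberg adjustment over 4099 genes. In LPL:VLDL against VLDL 0 of the 10 members and 0% of all genes were called. In GKT136901 against LPL:VLDL 0 of 10 and 0% were called, and in GKT136901 against VLDL 0 of 10 and 0%. At an unadjusted p under 0.05 there were 77, 87 and 91 genes in the 3 comparisons, with no member among them in this fit; DESeq2 called 0, 0 and 0 genes (126, 128 and 128 at an unadjusted p under 0.05) and limma voom 0, 0 and 0 (129, 119 and 158). With the experiment as a replicate block, 1 gene was called in LPL:VLDL against VLDL (0.0244% of all, no member), and 0% in GKT136901 against LPL:VLDL and 0% in GKT136901 against VLDL. At an unadjusted p under 0.05 the blocked fit had 172, 151 and 177 genes, with 1, 1 and 0 members among them, SNORD79 in the first comparison and SNORD78 in the second. This count varied with the tool and the scaling. Blocked limma voom had 333, 299 and 330 genes with 3, 3 and 0 members, and blocked DESeq2 247, 232 and 249 with 1, 1 and 0. Blocked edgeR scaled by library size alone had 194, 157 and 164 genes with 3, 2 and 0 members. GKT136901 was compared with both other treatments, and LPL:VLDL enters both of the first comparisons, so the 3 share libraries.

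Without SNORD77, the fold of LPL:VLDL over VLDL ran from 0.771 to 1.16 over 9 members, and the outermost bounds of their 95% intervals were 0.526 and 1.60. For GKT136901 over LPL:VLDL the folds ran from 0.855 to 1.28, with outermost bounds of 0.609 and 1.72. For GKT136901 over VLDL they ran from 0.906 to 1.08, with bounds of 0.619 and 1.44. With the replicate block the bounds were 0.596 and 1.34, 0.738 and 1.55, and 0.740 and 1.27. These are the outermost bounds over the 9 members, and single members had narrower intervals, such as 0.800 to 1.24 for SNORD74 in LPL:VLDL over VLDL. For SNORD77 the interval of LPL:VLDL over VLDL was wider, 0.289 to 1.33.

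In LPL:VLDL against VLDL 5 of the 10 members had a log2 difference above 0, with a median of 0.01 over the members and 0.01 over all genes. In GKT136901 against LPL:VLDL 3 of 10 were above 0 (medians -0.07 and -0.02), and in GKT136901 against VLDL 4 of 10 (medians -0.036 and -0.004). Scaling by library size alone moved the median of all genes to -0.11 in the first comparison and to 0.06 in the second, and the members above 0 to 2 and 7. Relative to those shifted medians the members again lay close to the middle, with medians of -0.13 and 0.03. No direction of the 10 as a set is therefore given.

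The most abundant member, SNORD44, had 39605, 45110, 51263, 42716 and 46242 TMM CPM in replicates 1 to 5 with VLDL. With LPL:VLDL it had 38365, 69114, 50647, 43449 and 59129 TMM CPM, and with GKT136901 46426, 49136, 44276, 40093 and 56320. The 3 groups overlapped, and the value of 69114 in LPL:VLDL replicate 2 was the highest of the 15. The log2 difference of LPL:VLDL from VLDL was 0.21 (SE 0.17, adjusted p = 0.999, edgeR), and that of GKT136901 from LPL:VLDL -0.14 (SE 0.17, adjusted p = 1). Without LPL:VLDL replicate 2 these were 0.08 (SE 0.17, adjusted p = 0.999) and -0.02 (SE 0.17, adjusted p = 1). Its coefficient of variation over the 15 libraries was 17.2% in TMM CPM and 9.33% in CPM of the total counts, where LPL:VLDL replicate 2 had 52747 against 40273 to 53671 over all. The apparent steadiness of this reference RNA thus differed with the scaling.

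SNORD81, the last member before the 3′ end of the host, had 27990, 28105, 31024, 26294 and 27063 TMM CPM with VLDL. With LPL:VLDL it had 21203, 49321, 31320, 24122 and 34042 TMM CPM, and with GKT136901 26159, 29364, 26119, 23337 and 31854. LPL:VLDL held both the lowest and the highest value, so its range enclosed the other groups. The mean with LPL:VLDL was 32001 ± 10992 TMM CPM (SD, n = 5) and 27672 ± 6009 without replicate 2, against 28095 ± 1796 with VLDL. The log2 difference was 0.19 (SE 0.19, adjusted p = 0.999, edgeR), with a higher value in 3 of 5 experiments, and without replicate 2 it was -0.03 (SE 0.17, adjusted p = 0.999). That of GKT136901 from LPL:VLDL was -0.23 (SE 0.19, adjusted p = 1) with this library and -0.02 (SE 0.17, adjusted p = 1) without it.

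SNORD74, the first member of the host, was the steadiest of the 10 on the TMM scale, with a coefficient of variation of 8.99%. It had 20976, 25154, 25003, 25340 and 21579 TMM CPM with VLDL, 21683, 23566, 23732, 22759 and 25590 with LPL:VLDL, and 25370, 25673, 20335, 19712 and 21785 with GKT136901. The groups overlapped, and the log2 differences were -0.01, -0.06 and -0.06 in the order of comparisons above (SE 0.15 each). In CPM of the total counts its coefficient of variation was 14.9%, above that of SNORD44.

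Ratios of members within a library do not depend on the scaling. SNORD81 gave 0.603 ± 0.0488 counts per count of SNORD44 (SD, n = 15), between 0.553 and 0.714, with the 2 highest values in LPL:VLDL replicate 2 (0.714) and VLDL replicate 1 (0.707). SNORD74 gave 0.492 ± 0.0686 counts per count of SNORD44, and LPL:VLDL replicate 2 was the lowest of the 15 at 0.341, before GKT136901 replicate 5 at 0.387. The same library had the lowest ratio of SNORD74 to SNORD81, 0.478 against 0.684 to 1.02 in the other 14. By treatment SNORD74 had 0.527 ± 0.0513 counts per count of SNORD44 after VLDL, 0.466 ± 0.0865 after LPL:VLDL and 0.481 ± 0.0622 after GKT136901 (SD over 5 libraries), and the ranges overlapped. LPL:VLDL replicate 2 thus differed from the rest in the proportions of the abundant members and not only in its scaling factor.

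SNORD79 was lower with LPL:VLDL than with VLDL in 5 of 5 experiments without passing the test. It had 107, 224, 173, 165 and 136 TMM CPM with VLDL, 87.9, 211, 154, 85.1 and 83.2 with LPL:VLDL, and 112, 153, 169.5, 107 and 188 with GKT136901. The differences within experiments 2 to 6 were -0.28, -0.09, -0.17, -0.95 and -0.71 on the log2 scale, so experiments 5 and 6 carried most of the mean. The fit gave a log2 difference of -0.38 (SE 0.27, adjusted p = 0.999), and with the replicate block -0.43 (SE 0.16, adjusted p = 0.988, edgeR), a fold of 0.744 (95% interval 0.596 to 0.928). Without LPL:VLDL replicate 2 the unblocked difference was -0.66 (SE 0.26, adjusted p = 0.999), and that of GKT136901 from LPL:VLDL was 0.50 (SE 0.26, adjusted p = 1) in place of 0.23 (SE 0.27, adjusted p = 1). Of all genes tested 3.46% were lower in 5 of 5 experiments, and 1 of 10 members was. In the other direction 3.44% were higher in 5 of 5, and 1 of 10 members was, SNORD75. Of the 166 C/D snoRNAs tested, members included, 1 was lower and 6 were higher in 5 of 5.

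SNORD75 had 126, 182, 166, 116 and 126 TMM CPM with VLDL and 140.5, 206, 183, 139 and 136 with LPL:VLDL. The differences within experiments were 0.16, 0.18, 0.14, 0.25 and 0.11 on the log2 scale, small and close to each other beside the step from 206 to 136 between experiments. The log2 difference was 0.17 (SE 0.22, adjusted p = 0.999), and with the replicate block 0.17 (SE 0.12, adjusted p = 0.988, edgeR). Without LPL:VLDL replicate 2 the unblocked difference was 0.05 (SE 0.22, adjusted p = 0.999). That fit keeps VLDL replicate 2, the highest VLDL value at 182 TMM CPM, without its match by experiment. The blocked fit without replicate 2 of all treatments gave 0.155, so the difference within experiments did not rest on that library. With GKT136901 SNORD75 had 184, 162, 166, 107 and 137 TMM CPM, overlapping the other groups and with the lowest value of the 15 in replicate 4.

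SNORD78, the member right after SNORD44 in the host, was higher with GKT136901 than with LPL:VLDL in 5 of 5 experiments, again without passing the test. It had 607, 614, 726, 725 and 665 TMM CPM with LPL:VLDL and 657, 773, 871, 856 and 1105 with GKT136901. With VLDL it had 512, 940.3, 814, 846 and 851 TMM CPM, and the groups overlapped. The log2 difference of GKT136901 from LPL:VLDL was 0.35 (SE 0.20, adjusted p = 1), and with the replicate block 0.33 (SE 0.11, adjusted p = 1, edgeR), a fold of 1.26 (95% interval 1.07 to 1.48). Of all genes 3.20% were higher in 5 of 5 experiments and 3.32% lower in 5 of 5, against 1 and 0 of the 10 members. Of the 166 C/D snoRNAs tested, members included, 2 were higher and 1 lower. In GKT136901 against VLDL the shares of all genes were 3.66% and 3.73%, and 0 members were higher or lower in 5 of 5. Of the 166 there, 1 was higher and 2 were lower.

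SNORD47, SNORD80 and SNORD76 did not keep a direction between treatments. SNORD47 had 765, 965, 953, 645 and 664 TMM CPM with VLDL, 706, 1600, 977, 546 and 691 with LPL:VLDL, and 889, 955, 833, 490.9 and 730.5 with GKT136901. The value of 1600 in LPL:VLDL replicate 2 was the highest by far, and the mean of that group was 903.8 TMM CPM with it and 729.8 without it. The mean of VLDL, 798, keeps its library of experiment 3, where SNORD47 had its highest mean, so 729.8 and 798 are not matched by experiment. SNORD80 had 902 TMM CPM in LPL:VLDL replicate 2 and 358 to 655 in the other 14, with a group mean of 529.9 TMM CPM with it and 437 without it. SNORD76 had 834.5 TMM CPM there and 425.5 to 634 elsewhere, with a group mean of 580.0 TMM CPM with it and 516 without it. Without it the unblocked log2 differences of LPL:VLDL from VLDL were -0.14 for SNORD47, -0.29 for SNORD80 and -0.15 for SNORD76 (SE 0.22, 0.21 and 0.19). With it they were 0.18, -0.01 and 0.03, and none was called. The blocked fit without all of experiment 3 gave -0.079 for SNORD47 and -0.107 for SNORD76. For SNORD80 blocked fits with 1 experiment left out ran from -0.219 to -0.007. In no comparison and for no member were the 2 groups without overlap; among all genes 0.561% were without overlap in LPL:VLDL against VLDL, 0.488% in GKT136901 against LPL:VLDL and 0.512% in GKT136901 against VLDL.

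**Figure D3:**
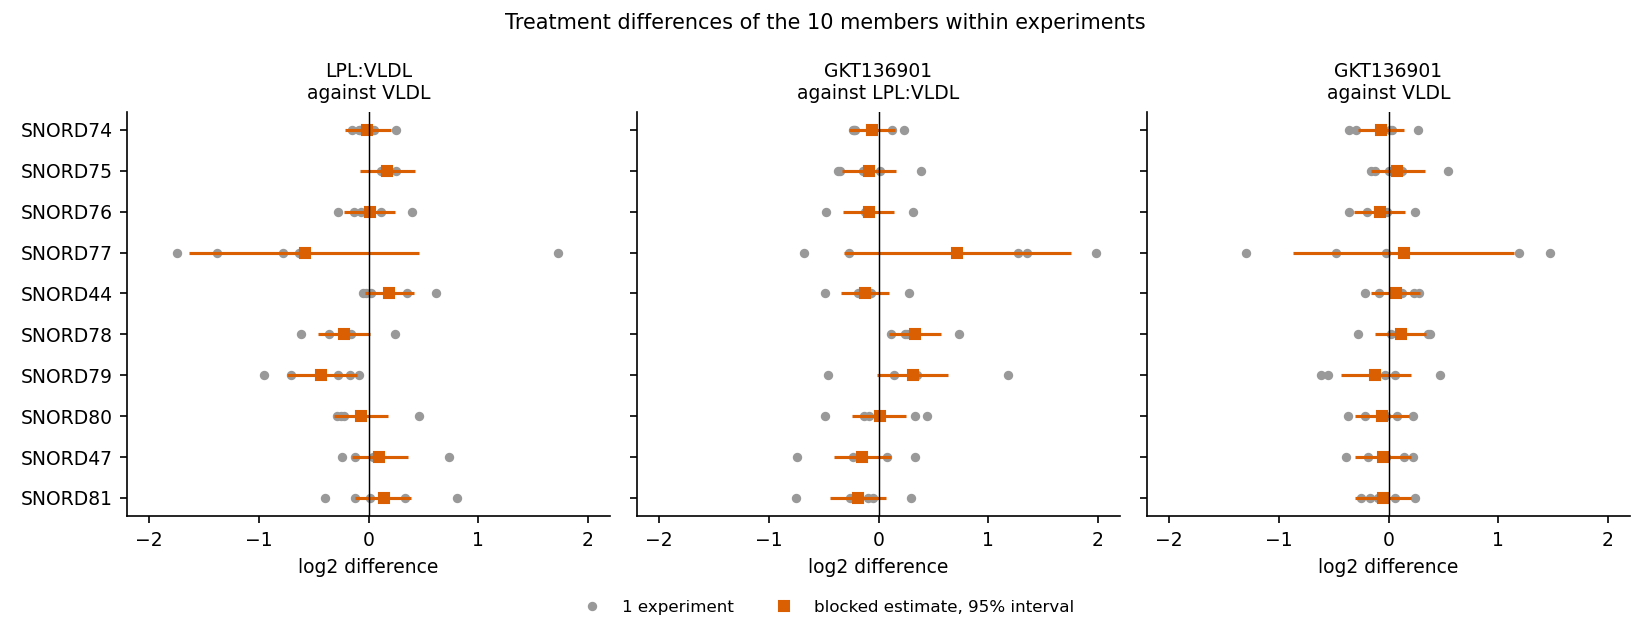
Log2 differences of the 10 snoRNAs in the 3 comparisons (x axis) by member (y axis, host order). Grey points are single experiments, orange squares the edgeR estimate with the replicate block and bars its 95% interval. The 5 points of SNORD75 lie above 0 and those of SNORD79 below 0 in LPL:VLDL against VLDL, those of SNORD78 lie above 0 in GKT136901 against LPL:VLDL, and SNORD77 has the widest bars.

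Differences between experiments passed the test in some members. In the model with treatment and experiment, 4 of the 10 members passed edgeR's quasi-likelihood F test of the 5 experiments after adjustment: SNORD47 (adjusted p = 0.000207), SNORD80 (0.000699), SNORD79 (0.00504) and SNORD75 (0.0309). Of all genes tested 11.1% passed, and of the 156 other C/D snoRNAs tested 67 passed, 42.9%, beside 40% of the members, so the share of the members was close to that of their class. SNORD47 averaged 1173 ± 370 TMM CPM in experiment 3, 921 ± 76.8 in experiment 4, 787 ± 93.5 in experiment 2, 695 ± 33.4 in experiment 6 and 560.5 ± 77.9 in experiment 5 (SD, n = 3 each). The 3 libraries of experiment 3 all exceeded the 3 of experiment 5. SNORD80 was also highest in experiment 3, with 733 ± 146 TMM CPM, and lowest in experiment 2, with 411 ± 47.4.

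SNORD79 averaged 196 ± 37.6 TMM CPM in experiment 3 and 102 ± 12.6 in experiment 2, and SNORD75 183 ± 22.1 in experiment 3 and 121 ± 16.2 in experiment 5 (SD, n = 3). The other 6 members did not pass the test. Of these, SNORD76 (adjusted p = 0.0918), SNORD81 (0.115), SNORD44 (0.129) and SNORD77 (0.522) also had their highest mean in experiment 3. Without LPL:VLDL replicate 2, SNORD44 averaged 47123 TMM CPM in experiment 3 and SNORD81 28735, below the 53897 and 30986 of experiment 6. In CPM of the total counts the highest experiment of SNORD75, SNORD76, SNORD44 and SNORD81 was 2. SNORD78 had its highest mean in experiment 6, 874 ± 221 TMM CPM, and its lowest in experiment 2, 592 ± 73.3 (adjusted p = 0.0950). SNORD74 had means of 22604 to 24798 TMM CPM in the 5 experiments (adjusted p = 0.945). In CPM of the total counts its means ran from 20715 in experiment 6 to 28585 in experiment 2. With scaling by library size alone it passed the edgeR test of experiments (adjusted p = 0.0247). It did not pass that test with DESeq2 size factors (0.964) or with TMM over C/D snoRNAs only (0.241), so its evenness was lost with library size alone.

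The experiments also differed in values beside those of the members. The summed myeloid markers were 81.8 to 127 CPM in the 3 libraries of experiment 2 and 27.5 to 56.3 in the other 12, and the summed HEK-293 genes 22.5 to 24.8 CPM against 5.74 to 12.2; their part in the differences between experiments was not tested. Scaling by library size alone gave 6 members, and TMM factors computed over C/D snoRNAs only gave 1, SNORD78 (adjusted p = 0.0311), with SNORD47 at 0.0569, SNORD79 at 0.24, SNORD80 at 0.311 and SNORD75 at 0.778. Relative to the bulk of C/D snoRNAs the 4 calls were thus lost. Without LPL:VLDL replicate 2 the count was 5 members, the 4 and SNORD78 (adjusted p = 0.0156). SNORD75 lost its call without experiment 3 (0.0727), 4 (0.0785), 5 (0.188) or 6 (0.0696), and SNORD79 lost it without experiment 2 (0.152).

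As a share of all counts, the 10 members together were highest in experiment 2, 11.6% ± 0.391, and lowest in experiment 5, 8.88% ± 0.314 (SD, n = 3). C/D snoRNAs as a class held 62.2% ± 1.61 and 50.5% ± 3.69 of all counts in the same experiments. Within the C/D snoRNA counts the members ranged only from 17.5% ± 0.447 in experiment 3 to 18.7% ± 0.480 in experiment 6. The pooled members thus followed the class, of which they are a part. SNORD44, SNORD81 and SNORD74 held 97.1% of the pooled counts, so this share does not describe the other 7 members. Experiment 2, the highest by share of all counts, was the lowest for SNORD44, SNORD78, SNORD79 and SNORD80 after TMM scaling.

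**Figure D4:**
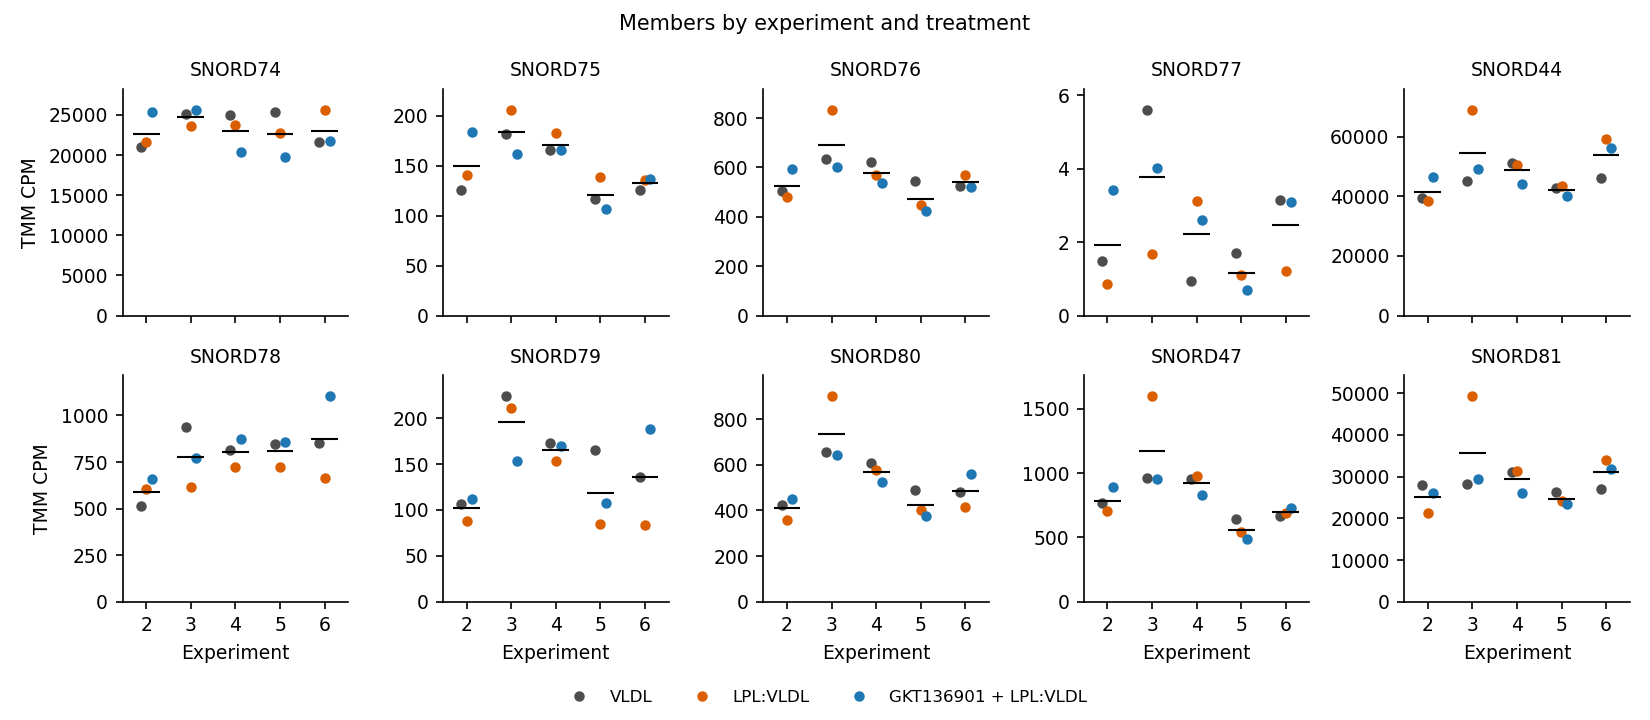
TMM CPM (y axis, from 0) of each snoRNA in experiments 2 to 6 (x axis), with 1 point per library coloured by treatment and a line at the mean of the 3. SNORD47 and SNORD80 peak in experiment 3, where LPL:VLDL replicate 2 gives the highest point, while SNORD74 stays nearly level on this scale.

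Whether members of 1 host vary together was described by the SD, over the 15 libraries, of the log2 ratio of 2 genes, which is small when they keep their proportion (level on the log2 scale of TMM CPM plus 1). The steadiest of the 45 pairs of members was SNORD44 and SNORD81, with an SD of 0.111, followed by SNORD76 and SNORD81 (0.159), SNORD76 and SNORD44 (0.166) and SNORD75 and SNORD76 (0.171). SNORD44 and SNORD81 stand 5 places apart in the host. The median over the 36 pairs without SNORD77 was 0.270; for the 7 of them that are neighbours in the host it was 0.245 (0.171 to 0.404), and for the other 29 it was 0.318 (0.111 to 0.547). Pairs of 9 members with 87 other C/D snoRNAs of at least 100 TMM CPM had a median of 0.274, so sharing the host did not go with a smaller value. Pairs hosted by SNHG1 had a median of 0.356 (21 pairs) and pairs hosted by RPL13A 0.247 (6 pairs). These pairs are of the 7 of 8 SNHG1-hosted and 4 of 4 RPL13A-hosted snoRNAs that passed the filter on low counts. SNORD77 also passed it, and with SNORD77 kept the 45 pairs of the GAS5 members had a median of 0.355. The points share libraries and scaling, so these values are a description with no test.

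For 8 of the 10 members the gene with the smallest SD among 4098 others was a C/D snoRNA that is not 1 of the 10. The members are only 10 of the 166 C/D snoRNAs tested, so a closest gene outside the 10 says little about the host. SNORD44 was closest to SNORD99 (0.0818), SNORD81 to SNORD18A (0.0954), SNORD74 to SNORD69 (0.111), SNORD76 to SNORD70B (0.0819), SNORD47 to SNORD110 (0.0997), SNORD80 to SNORD27 (0.109), SNORD75 to SNORD96A (0.120) and SNORD79 to SNORD65 (0.222). SNORD78 was closest to MIR501 (0.194), and its closest member, SNORD74 (0.318), came at place 90. SNORD77 was closest to GDAP2 (0.411), a gene of about 1 TMM CPM. The closest member came at place 2 for SNORD81, 3 for SNORD79 and 7 for SNORD44, and at places 17 to 43 for SNORD80, SNORD75, SNORD47, SNORD74, SNORD76 and SNORD77. With the mean of each experiment taken out, SNORD78 was again closest to a miRNA gene, MIR93 (0.125), and SNORD81 again to SNORD18A (0.0673).

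**Figure D5:**
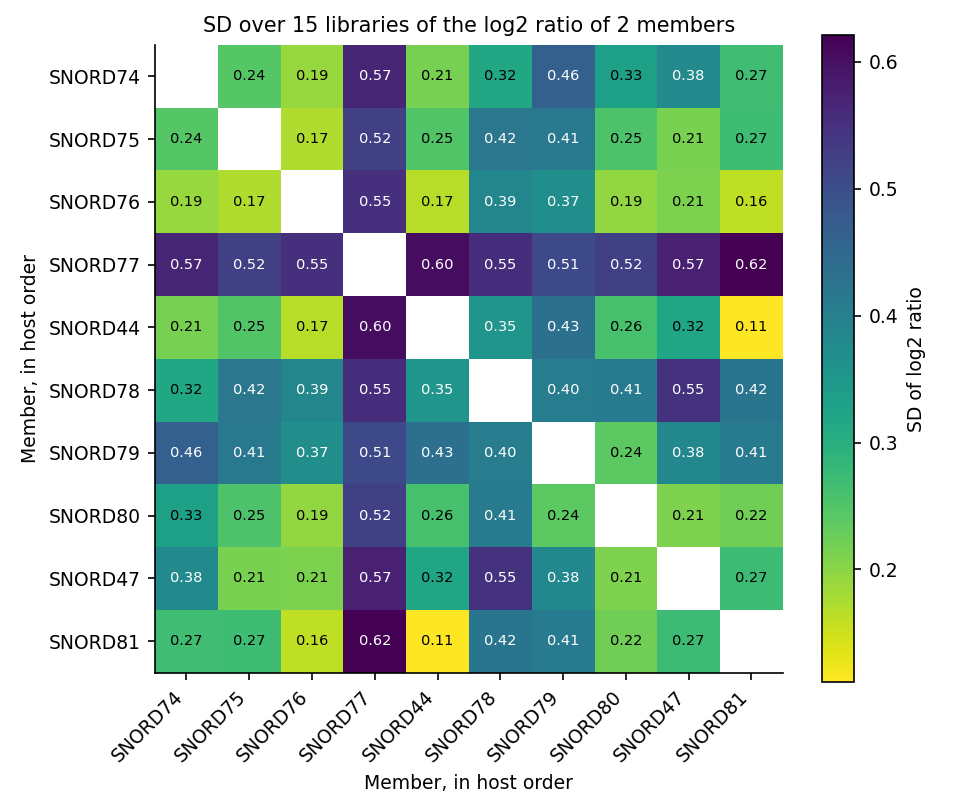
SD over 15 libraries of the log2 ratio of each pair of the 10 snoRNAs (colour and number), both axes in host order. SNORD44 and SNORD81 have the smallest value, 0.111; the row of SNORD77 holds the largest, up to 0.621, and the row of SNORD78 lies between 0.318 and 0.554.

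SnoRNAs of 2 other hosts are given beside the members. Of 7 tested SNHG1-hosted and 4 tested RPL13A-hosted C/D snoRNAs, 0 were called in each comparison, and 5 of 7 and 2 of 4 passed the test of experiments. In LPL:VLDL against VLDL their median log2 differences were -0.02 and 0.12, beside 0.01 for the GAS5-hosted members and 0.11 for the 156 other C/D snoRNAs tested. No difference between hosts was tested.

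The proteins that build, trim and use C/D snoRNAs could hardly be read here. Of 20 listed genes 4 passed the filter on low counts, with 117 to 273 counts in all, and 0 were called in any comparison. NOP58, a core protein of C/D particles, had 1.61 ± 0.647 CPM of the total counts after VLDL, 0.387 ± 0.574 after LPL:VLDL and 0.598 ± 0.512 after GKT136901 (SD over 5 libraries). The log2 difference of LPL:VLDL from VLDL was -2.07 (SE 0.94, adjusted p = 0.999, edgeR). It reached the filter level of 1.1 CPM in 3 of 5 libraries with VLDL and in 1 of 5 with each other treatment, so it was tested largely through the VLDL libraries and its low value elsewhere is no support for a difference. DIS3, a nuclease of the exosome, had -0.96 (SE 0.54, adjusted p = 0.999). UPF1 and SMG1, of nonsense-mediated decay, had -0.40 (SE 0.66) and -0.32 (SE 0.48). FBL, which encodes fibrillarin, ZNHIT3 and PARN were listed at 0 in every library.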

How the data were processed

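Small RNA libraries were counted per gene by the authors. The deposited values are raw counts, whole numbers with no scaling. Per the file headers they come from featureCounts 2.0.6 (exon features summed by gene_id, RefSeq annotation of GRCh38.p14); no option was set for strand, multimapping or features that overlap, so such shared reads went uncounted. The submitters' processing notes list fastp 0.24.0, STAR 2.7.11b, hg38, R 4.4.2, edgeR 4.4.2 and DESeq2 1.46. Treatment, replicate and experiment came from the labels. The edgeR function filterByExpr (minimum count 10) kept 4099 genes with 99.7% of the counts. They were scaled by TMM and tested two-sided with edgeR 4.0.16 under R 4.3.3, all 3 treatments in a single fit (12 residual degrees of freedom), and called below an adjusted p of 0.05. DESeq2 1.42.0 and limma 3.58.1 were alternatives, as were the scaling, the filter and the libraries used. Only the edgeR fits of treatment, with and without the replicate block, were checked on simulated data.

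Libraries with an equal replicate number carry the same experiment label, which pairs them. Their deviations from group means had correlations of 0.0664 to 0.378 over 15 pairs (median 0.115), and libraries of different experiments a median of -0.0703 over 60 pairs. The fit with experiment as a replicate block left 8 residual degrees of freedom. Standard errors are the size of the log2 difference over the root of F. Separate cultures are not stated, so a p-value here reflects library-to-library spread, possibly technical. PCR copies were not told apart. Named genes are the 10 members, GAS5, the tested genes of the listed C/D particle, trimming and decay proteins, and the gene most like each member. The rule for the members uses gene names only, but this set of genes and all lists were chosen with earlier results of these data known.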

Additional observations from a re-analysis of the deposited data

How the results depend on the processing

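In the 3 treatment comparisons the number of members called was 0 under each of 34 alternatives, the replicate block included. The number of all genes called, 0 in each, became 1 with the replicate block in LPL:VLDL against VLDL, 1 with the block and DESeq2 and 4 with the block and limma voom; in GKT136901 against VLDL it became 2 and 3 with the block and these tools. With 1 experiment left out of the blocked fit it was 0 to 2 in LPL:VLDL against VLDL. The number of members that differed between experiments, 4, became 1 with TMM over C/D snoRNAs only and 7 with no low-count filter, and 3 to 5 with an experiment or library left out; that of all genes, 455, was 145 to 463 when 1 was left out, the lowest without experiment 2. The cause was not tested. Combinations of the block with another scaling or tool, and the test of experiments without LPL:VLDL replicate 2, were chosen after seeing the data.

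Of the 30 log2 differences none was called under any of 867 alternatives; 75 alternatives changed the sign, of differences of at most 0.213 in size, and 11 differences never changed sign. Library size alone gave -0.128 for SNORD76, -0.010 for SNORD47 and -0.014 for SNORD81 in LPL:VLDL against VLDL, and 0.042 for SNORD74, 0.027 for SNORD75, 0.017 for SNORD76 and 0.091 for SNORD80 in GKT136901 against LPL:VLDL. SNORD76 in the first comparison had -0.033 with TMM over C/D snoRNAs only, -0.026 with at least 10 counts in every library, -0.001 with limma voom and -0.007 with only the 2 groups compared. SNORD80 in the second had 0.009 with the replicate block, 0.053 with TMM over C/D snoRNAs only and 0.015 with limma voom. With a library or experiment left out, LPL:VLDL against VLDL ran from -0.081 to 0.033 for SNORD74, -0.145 to 0.117 for SNORD76, -0.294 to 0.102 for SNORD80, -0.139 to 0.318 for SNORD47 and -0.056 to 0.300 for SNORD81. GKT136901 against LPL:VLDL ran from -0.204 to 0.009 for SNORD75, -0.203 to 0.052 for SNORD76, -0.165 to 0.222 for SNORD80 and -0.361 to 0.088 for SNORD47. GKT136901 against VLDL ran from -0.180 to 0.007 for SNORD74, -0.065 to 0.172 for SNORD75, -0.197 to 0.593 for SNORD77, -0.022 to 0.149 for SNORD44, -0.029 to 0.207 for SNORD78, -0.291 to 0.019 for SNORD79, -0.167 to 0.032 for SNORD80, -0.146 to 0.088 for SNORD47 and -0.127 to 0.012 for SNORD81. SNORD77, at 6 to 55 counts a library, is the member whose precision depth limits most, and it was not tested at 10 counts in every library.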
